A study of Mus musculus with 6 samples.

Results

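The 50 genes described here encode the machinery that copies DNA and divides the nucleus, and they were taken by gene symbol from a list of 50 names. All are among the 17067 genes of the deposited tables. By role, 18 belong to DNA replication and nucleotide supply, 18 to the kinetochore and spindle, 7 are cyclins or the cyclin-dependent kinase Cdk1, and 7 act on chromatin or transcription. RNA was measured in colon macrophages, gated as CD45+CD11b+F4/80+, of C57BL/6 mice aged 10 weeks, 3 samples from Gsdmd-/- mice and 3 from wild-type (WT) mice. Both genotypes had colitis from dextran sulfate sodium (DSS), a polymer that injures the colon lining, and no undiseased group was analysed here. Gsdmd encodes gasdermin D, the pore-forming protein of pyroptosis, an inflammatory form of cell death. The labels name a gene knockout with no Cre driver and do not say whether a sample was 1 mouse or a pool, so the p-values cover only sample-to-sample spread, part or all of which may be technical.

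Cell division genes are switched on in waves. In late G1, E2F factors released from the retinoblastoma (pocket) proteins activate genes that load the MCM helicase onto origins and make deoxynucleotides. In G2, a complex holding B-MYB and FOXM1 activates genes of the mitotic spindle, many of which carry a short promoter element named the cell cycle genes homology region (CHR). Most differentiated tissue macrophages are quiescent, but monocyte-derived and resident macrophages can both divide in inflamed tissue.

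The value in each table was read as FPKM, a fragment number divided by transcript length and library size, which allows levels to be compared between genes. Depth estimated from the step size of low values was 20.7 M to 21.3 M fragments in Gsdmd-/- samples and 20.8 M to 21.1 M in WT samples. Gsdmd itself was at 28.5, 29.0 and 29.7 FPKM in Gsdmd-/- samples, against 97.7, 99.4 and 97.4 FPKM in WT samples (log2 change -1.72, limma, adjusted p = 1.12e-11). The 8 macrophage markers were all present, and 3 rose (37.5%, against 40.6% of all tested genes) and 5 fell (62.5%, against 36.9%). Their summed level was 8574 to 8642 FPKM in Gsdmd-/- samples and 7698 to 8187 FPKM in WT samples. Most of it was Lyz2 (means 5469 and 5008 FPKM) and Cd68 (1858 and 1477 FPKM), which rose. The genes of the sorting gate, Ptprc, Itgam and Adgre1, all fell without overlap. Itgam, the gene of CD11b, was at 87.5 to 95.6 FPKM in Gsdmd-/- samples and 173 to 179 FPKM in WT samples. Ptprc had means of 57.9 and 92.4 FPKM and Adgre1 of 216 and 291 FPKM, in the same order. After the length correction described below 1 marker rose (12.5%, against 30.0% of all genes so corrected) and 7 fell (87.5%, against 30.3%). In TPM, also described below, 2 rose (25%, against 25.0% of all tested genes) and 6 fell (75%, against 51.0%).

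Promoter windows, 250 bases before to 50 after an annotated start, were found for 39 of the 50 genes in RefSeq (GRCm38.p6), as 42 windows. Each was searched on both strands for the CHR element (TTTGAA or TTCGAA), the CCAAT box (CCAAT) and an E2F word (TTTGGCGC, TTTCGCGC, TTTCCCGC or TTTGCCGC). The CHR element was in 45.2% of these windows against 19.2% of 32851 windows of all genes, the CCAAT box in 76.2% against 37.4%, and an E2F word in 21.4% against 2.27%. The groups differed in these letters: the CHR element was present in 10 of 14 kinetochore and spindle genes and in 3 of 15 replication genes, while an E2F word was present in 0 of 14 kinetochore and spindle genes and in 6 of 15 replication genes. A match is a description of sequence and not a measured binding site. The promoters below are those of the gene with the largest rise in each group that has an entry, with Mcm6 and Cdk1 added after the matches were seen because Mcm6 holds several E2F words and Cdk1 holds all the elements searched. Capitals mark the matches, read 5′ to 3′ on the strand of the gene, and no 2 different elements overlap in them.
Tk1 promoter, chr11:117825965-117826264, minus strand: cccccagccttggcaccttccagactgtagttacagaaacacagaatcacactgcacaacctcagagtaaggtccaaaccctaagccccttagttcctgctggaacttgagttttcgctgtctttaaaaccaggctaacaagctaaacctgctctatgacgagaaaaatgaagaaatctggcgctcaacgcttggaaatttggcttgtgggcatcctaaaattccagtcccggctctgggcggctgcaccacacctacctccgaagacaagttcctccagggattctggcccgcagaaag
Mcm6 promoter, chr1:128359656-128359955, minus strand: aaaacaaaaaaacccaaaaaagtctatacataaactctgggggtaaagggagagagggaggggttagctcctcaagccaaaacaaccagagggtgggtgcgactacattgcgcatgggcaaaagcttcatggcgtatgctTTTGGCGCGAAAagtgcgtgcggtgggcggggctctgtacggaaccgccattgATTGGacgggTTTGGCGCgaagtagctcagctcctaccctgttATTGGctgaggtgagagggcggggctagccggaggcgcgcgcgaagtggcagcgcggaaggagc
Birc5 promoter, chr11:117848987-117849286, plus strand: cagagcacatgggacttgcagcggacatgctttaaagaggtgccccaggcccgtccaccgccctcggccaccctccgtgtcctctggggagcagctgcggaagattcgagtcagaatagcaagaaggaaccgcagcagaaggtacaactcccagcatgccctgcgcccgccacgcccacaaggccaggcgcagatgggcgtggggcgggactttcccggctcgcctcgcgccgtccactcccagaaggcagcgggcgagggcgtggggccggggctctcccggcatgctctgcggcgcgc
Ccnb2 promoter, chr9:70421505-70421804, minus strand: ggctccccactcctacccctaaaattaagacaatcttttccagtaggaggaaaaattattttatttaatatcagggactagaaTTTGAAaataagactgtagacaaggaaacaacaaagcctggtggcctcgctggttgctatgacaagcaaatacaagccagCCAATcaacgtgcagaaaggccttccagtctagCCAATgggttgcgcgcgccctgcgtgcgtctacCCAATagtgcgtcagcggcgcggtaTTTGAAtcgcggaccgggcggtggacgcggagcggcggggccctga
Cdk1 promoter, chr10:69352863-69353162, minus strand: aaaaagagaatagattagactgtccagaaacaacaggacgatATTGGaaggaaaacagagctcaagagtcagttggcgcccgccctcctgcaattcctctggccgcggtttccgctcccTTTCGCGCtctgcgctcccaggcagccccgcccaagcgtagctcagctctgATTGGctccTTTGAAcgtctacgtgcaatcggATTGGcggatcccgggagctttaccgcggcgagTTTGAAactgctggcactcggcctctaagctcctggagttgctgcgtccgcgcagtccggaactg
Hmgb2 promoter, chr8:57511593-57511892, plus strand: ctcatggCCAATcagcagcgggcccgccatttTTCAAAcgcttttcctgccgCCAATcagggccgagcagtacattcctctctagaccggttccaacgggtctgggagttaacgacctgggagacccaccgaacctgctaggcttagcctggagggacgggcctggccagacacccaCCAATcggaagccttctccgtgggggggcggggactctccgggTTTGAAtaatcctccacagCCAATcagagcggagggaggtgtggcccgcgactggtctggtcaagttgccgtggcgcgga
The Tk1 and Birc5 windows hold none of these letters. In Cdk1, a TTTGAA begins 15 bases before the start and an inverted CCAAT box 48 bases before it, with the E2F word TTTCGCGC 131 bases upstream. In Mcm6, E2F words begin 110, 106 and 47 bases upstream, the first and second overlapping. Ccnb2 carries CCAAT boxes 87, 54 and 21 bases upstream.

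Of the 50 genes, 46 had at least 1 FPKM in at least 3 samples and were tested within the fit of 10005 genes. In Gsdmd-/- macrophages 36 of the 46 rose (78.3%) and 3 fell (6.52%), where 40.6% of all tested genes rose and 36.9% fell, 77.5% together (limma on log2(FPKM + 1), adjusted p under 0.05). The median log2 change of the 46 was 0.31, against 0.03 over all tested genes. In 34 of them every Gsdmd-/- sample was above every WT sample (73.9%), which held for 41.2% of all tested genes, and in 3 of them every one was below (6.52%, against 38.3%). The rises were mostly modest: 13 genes had a mean ratio of 1.5 or more (28.3%, against 12.2% of all tested genes), and the highest ratio was that of Tk1, 1.88. The 50 genes summed to 936 ± 5.49 FPKM in Gsdmd-/- samples and 738 ± 3.45 FPKM in WT samples (SD, n = 3 each). As a share of all FPKM in the library they held 0.167% ± 0.0013 in Gsdmd-/- samples and 0.154% ± 0.00218 in WT samples. The share was higher in the kinetochore and spindle group (ratio of Gsdmd-/- to WT 1.33), near equal for chromatin and transcription genes (1.01), and lower for replication genes (0.935) and cyclins (0.925). Pcna, which fell, made up 161 of 329 FPKM of the replication group in Gsdmd-/- samples and 173 of 301 FPKM in WT samples (means). Ccnd1, which also fell, made up 29.8 of 94.2 FPKM of the cyclin group in Gsdmd-/- samples and 37.4 of 87.3 FPKM in WT samples. In bulk samples a larger share of dividing cells and more RNA per dividing cell cannot be told apart.

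**Figure D1:**
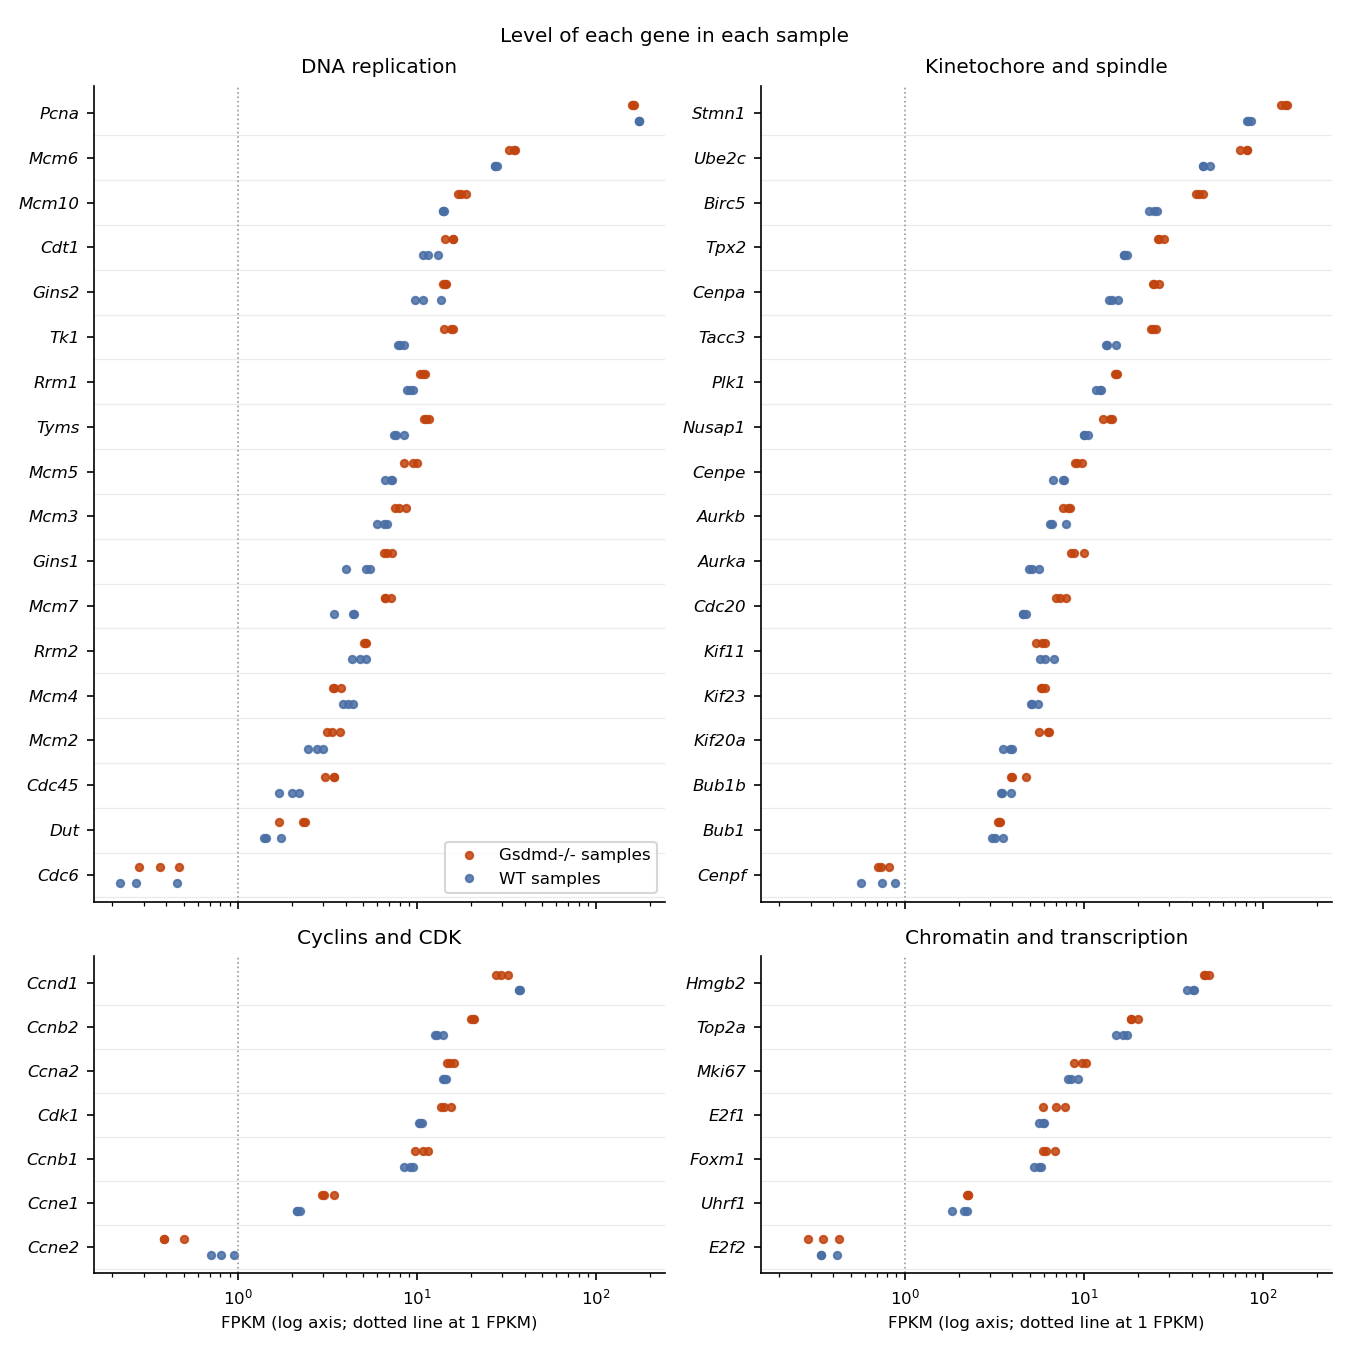
Level of each of the 50 genes in FPKM (log axis), with the 3 Gsdmd-/- samples (upper points) and the 3 WT samples (lower points) of each gene, ordered by mean level within its group. Pcna and Stmn1 had the highest levels, and Cdc6, Cenpf, Ccne2 and E2f2 stayed under the 1 FPKM line in every sample.

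Transcript length and GC content moved with genotype across the whole table and bear on each of these values. Over 9853 tested genes the Spearman correlation across genes of log2 change with transcript length was -0.64 and with GC content 0.49, so short transcripts were higher in Gsdmd-/- samples. Over the 46 genes it was -0.49 with length and 0.33 with GC, and genes share libraries and are not independent replicates. The 15 shortest transcripts, 947 to 2189 bases, had a median log2 change of 0.58, and the 16 longest, 3421 to 10061 bases, one of 0.18. Length correction here means that a smooth trend on length and GC was subtracted from every sample. After it, 33 of the 46 genes rose (71.7%) and 2 fell (4.35%), where 30.0% of all genes so corrected rose and 30.3% fell. The median was then 0.36, and the same shortest and longest genes had medians of 0.25 and 0.44. The Spearman correlation of log2 change with length was then 0.37 over the 46 genes and -0.03 over all genes so corrected. Corrected values thus ran higher in the long members, and whether the correction is apt for these genes was not tested.

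Fewer of the genes rose on a second scale. Gsdmd-/- libraries had larger sums of FPKM, 551502 to 565388 against 476271 to 485411 in WT libraries, and rescaling each library to the same total (TPM) moved the median log2 change of all genes to -0.17. In TPM 19 of the 46 genes rose (41.3%) and 4 fell (8.70%), where 25.0% of all tested genes rose and 51.0% fell, and the median log2 change of the 46 was 0.11. The 17 genes that rose on FPKM but did not pass in TPM were Mcm2, Mcm3, Mcm6, Mcm10, Cdt1, Gins2, Rrm1, Dut, Aurkb, Plk1, Cenpe, Kif23, Ccnb1, Hmgb2, Top2a, Foxm1 and E2f1, and the log2 changes of Aurkb, Kif23, Top2a and Foxm1 were then slightly negative, from -0.01 to -0.05.

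**Figure D2:**
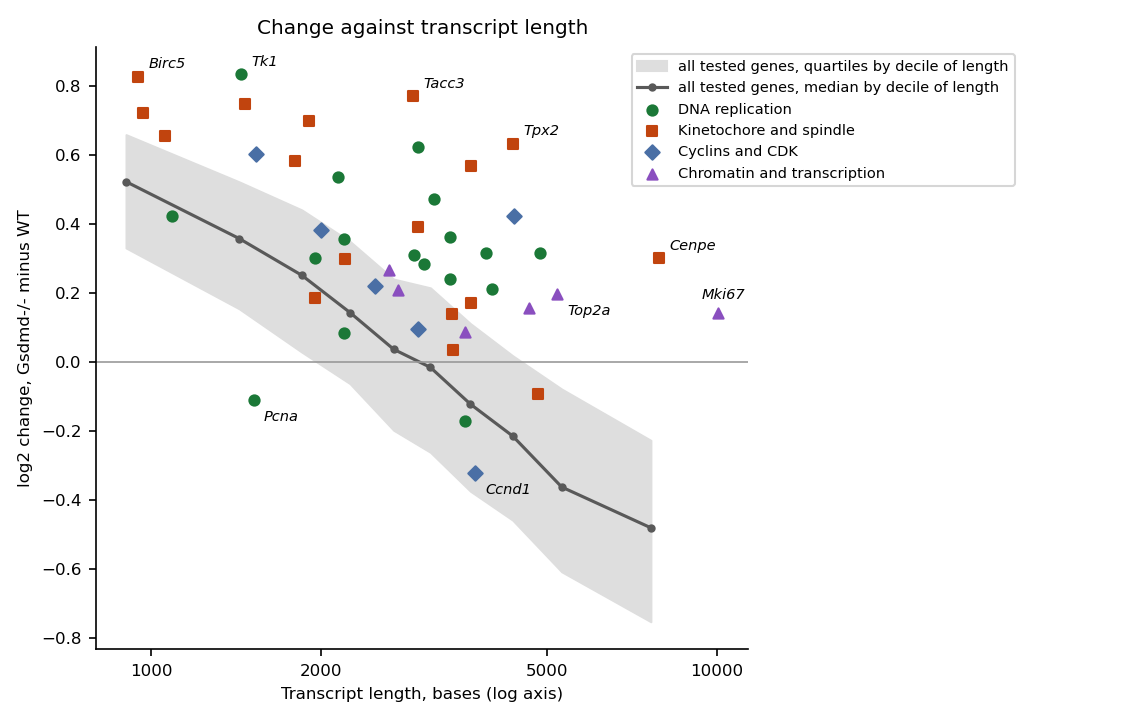
Log2 change (Gsdmd-/- minus WT) against transcript length in bases (log axis) for the 46 tested genes, over the median and quartiles of all tested genes in each decile of length. Most of the 46 lie above the median line of their length, and Pcna and Ccnd1 are among those that lie below it.

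Replication genes were the first group. Of 17 tested, 14 rose (82.4%, against 40.6% of all tested genes) and 2 fell (11.8%, against 36.9%), with a median log2 change of 0.32. After length correction 10 rose (58.8%, against 30.0%) and 1 fell (5.88%, against 30.3%), with a median of 0.35. In TPM 6 rose (35.3%, against 25.0%) and 2 fell (11.8%, against 51.0%), with a median of 0.11. As a share of all FPKM the group held 0.0587% in Gsdmd-/- samples and 0.0628% in WT samples, with Pcna, which fell, as its most abundant gene. In nucleotide supply, Tk1 had the largest log2 change of the group as deposited. Tk1, thymidine kinase of the salvage pathway (gene 21877, chromosome 11, 117815519 to 117826087 in GRCm38.p6), was at 14.2, 15.5 and 16 FPKM in Gsdmd-/- samples, against 8.45, 8.05 and 7.82 FPKM in WT samples. The groups stood far apart (log2 change 0.83, SE 0.0554, adjusted p = 6.17e-08), and after length correction the log2 change was 0.41. Tyms, thymidylate synthase, which makes the thymidine nucleotide from scratch, had 11, 11.6 and 11.2 FPKM in Gsdmd-/- samples, against 7.41, 7.65 and 8.50 FPKM in WT samples, without overlap (log2 change 0.47, adjusted p = 1.22e-05). It rose by 0.59 after length correction. Dut, which removes dUTP so that uracil is not built into DNA, had 2.32, 1.71 and 2.37 FPKM in Gsdmd-/- samples and 1.41, 1.44 and 1.75 FPKM in WT samples, and Gsdmd-/- replicate 2 lay below the highest WT sample. Its log2 change was 0.30 (adjusted p = 0.0116), but 0.14 after length correction, where it did not pass (adjusted p = 0.243), nor did it without Gsdmd-/- replicate 3 (0.0576). The ribonucleotide reductase subunits differed: Rrm1, the large subunit, rose by 0.21, with 10.4 to 11.1 FPKM in Gsdmd-/- samples and 8.80 to 9.54 FPKM in WT samples. Rrm2, the small subunit, had 5.07 to 5.17 FPKM in Gsdmd-/- samples inside the WT range of 4.35 to 5.21 FPKM, and did not pass (log2 change 0.08, adjusted p = 0.272).

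The MCM genes encode the subunits of the replicative helicase, which form a ring. Mcm6 stood at 32.5 to 35.5 FPKM in Gsdmd-/- samples and 27.2 to 28.0 FPKM in WT samples, while the other ring members Mcm2, Mcm3, Mcm4, Mcm5 and Mcm7 lay between 2.48 and 10.1 FPKM in all 6 samples. Mcm7 had 7.18, 6.62 and 6.64 FPKM in Gsdmd-/- samples, against 4.44, 3.46 and 4.38 FPKM in WT samples, the largest change of the ring (log2 change 0.62, SE 0.0796, adjusted p = 1.68e-05), and 0.55 after length correction. Mcm3, Mcm5 and Mcm6 rose by 0.28, 0.36 and 0.31, and stayed past the threshold after length correction. Mcm2 had 3.73, 3.37 and 3.16 FPKM in Gsdmd-/- samples and 2.48, 2.99 and 2.76 FPKM in WT samples (log2 change 0.24, adjusted p = 0.0121). The groups did not overlap, but the gene did not pass after length correction (0.17, adjusted p = 0.0692), or without Gsdmd-/- replicate 1 (0.0555) or WT replicate 1 (0.0560). Mcm4 went the other way, with 3.79, 3.45 and 3.42 FPKM in Gsdmd-/- samples, below 4.40, 3.87 and 4.10 FPKM in WT samples (log2 change -0.17, adjusted p = 0.0353). It did not pass after length correction, with a log2 change of 0.06 (adjusted p = 0.400). Mcm4 also lost its call without Gsdmd-/- replicate 2 (0.0936) or 3 (0.0896) and without WT replicate 1 (0.136) or 3 (0.0724).

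Within the replication group, the tested factors of origin loading and helicase activation rose on the values as deposited. Origin genes outside this group, described below, moved less uniformly. Cdc45, which joins the MCM ring to start unwinding, was low, with 3.44, 3.05 and 3.43 FPKM in Gsdmd-/- samples and 1.69, 2.02 and 2.21 FPKM in WT samples. The groups did not overlap (log2 change 0.54, SE 0.0800, adjusted p = 6.13e-05), and the log2 change was 0.44 after length correction. Gins1, of the GINS complex that completes the helicase, had 7.30, 6.77 and 6.53 FPKM in Gsdmd-/- samples, against 5.21, 4.02 and 5.47 FPKM in WT samples (log2 change 0.42, adjusted p = 0.00102), and did not pass after length correction (0.15, adjusted p = 0.156). Gins2 and Mcm10, a factor that helps activate the helicase, each rose by 0.32, and after length correction by 0.36 and 0.60. Cdt1, which loads MCM onto origins, had 14.4, 15.8 and 15.9 FPKM in Gsdmd-/- samples and 10.8, 13.1 and 11.6 FPKM in WT samples. It rose by 0.36 (adjusted p = 0.000406) but had a log2 change of 0.02 after length correction (adjusted p = 0.767). Cdc6, its loading partner, was under the filter, at 0.470, 0.370 and 0.280 FPKM in Gsdmd-/- samples and 0.220, 0.270 and 0.460 FPKM in WT samples, which overlap.

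Pcna, the sliding clamp that holds DNA polymerases to the template, was the most abundant of the 50 genes and went against most of its group. It was at 161, 162 and 159 FPKM in Gsdmd-/- samples, against 174, 174 and 173 FPKM in WT samples. Every Gsdmd-/- sample was lower, by a small margin (log2 change -0.11, SE 0.0256, adjusted p = 0.00181). It fell in every alternative as well, by 0.23 after length correction and by 0.33 in TPM. Pcna-ps1 and Pcna-ps2, pseudogenes of Pcna, are annotated on chromosomes X and 19, and how the authors shared reads between copies is not given in the sources used here.

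Kinetochore and spindle genes had a median log2 change of 0.57 as deposited, the highest of the 4 groups on that scale and in TPM but not after length correction, where that of chromatin and transcription genes was higher (0.40). Of 17 tested, 14 rose (82.4%, against 40.6% of all tested genes) and 0 fell (against 36.9%), and 3 did not pass. After length correction 15 rose (88.2%, against 30.0%) and 0 fell (against 30.3%), with a median of 0.36. In TPM 10 rose (58.8%, against 25.0%) and 1 fell (5.88%, against 51.0%), with a median of 0.42. The group's summed level was 420 ± 9.47 FPKM in Gsdmd-/- samples and 270 ± 1.98 FPKM in WT samples (SD, n = 3 each), of which Stmn1 made up the largest part, with 125 to 137 FPKM in Gsdmd-/- samples and 80.9 to 86.0 FPKM in WT samples. As a share of all FPKM the group held 0.0750% in Gsdmd-/- samples and 0.0563% in WT samples.

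The chromosomal passenger complex, which corrects faulty attachments and guides cytokinesis, has 2 subunits among the 50 genes, Birc5 and Aurkb. Birc5, its survivin subunit (gene 11799, chromosome 11, 117849237 to 117855743), had 44.1, 46.0 and 42.4 FPKM in Gsdmd-/- samples, against 23.2, 24.6 and 25.6 FPKM in WT samples (log2 change 0.83, SE 0.0456, adjusted p = 1.48e-08). No Gsdmd-/- sample came near a WT sample, and the log2 change was 0.39 after length correction. Aurkb, its kinase, had 8.34, 7.69 and 8.20 FPKM in Gsdmd-/- samples and 6.61, 6.47 and 7.91 FPKM in WT samples, which overlap. Its log2 change of 0.19 passed (adjusted p = 0.0307), but it was -0.05 after length correction (adjusted p = 0.573) and -0.01 in TPM. The call of Aurkb was also lost without Gsdmd-/- replicate 1 (0.0907) or 3 (0.0789) and without WT replicate 1 (0.102) or 2 (0.120). The other subunits, Incenp and Cdca8, named after their values were seen, rose by 0.38 and 0.56, and by 0.31 and 0.24 after length correction.

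Aurka, Tpx2 and Tacc3 of spindle assembly and Cenpa and Cenpe of the centromere rose, while the spindle motor Kif11, described below, did not pass. Aurka, the kinase of spindle poles, had 8.46, 10.0 and 8.82 FPKM in Gsdmd-/- samples, against 4.92, 5.11 and 5.62 FPKM in WT samples (log2 change 0.70, adjusted p = 2.00e-06). Tpx2, which activates Aurka on spindle microtubules, rose by 0.63, with 26.0 to 28.2 FPKM in Gsdmd-/- samples and 16.8 to 17.4 FPKM in WT samples. Tacc3, a spindle protein that Aurka phosphorylates, had 24.2, 25.4 and 23.8 FPKM in Gsdmd-/- samples, against 15.1, 13.3 and 13.5 FPKM in WT samples (log2 change 0.77, adjusted p = 7.80e-08). All of these kept their rise after length correction, by 0.48 for Aurka, 0.89 for Tpx2 and 0.70 for Tacc3. Cenpa, the histone variant that marks centromeres, had 26.3, 24.7 and 24.4 FPKM in Gsdmd-/- samples, against 14.4, 15.4 and 13.9 FPKM in WT samples, without overlap (log2 change 0.75, adjusted p = 6.33e-08). It rose by 0.56 after length correction. Cenpe, a kinetochore motor with a transcript of 7910 bases, rose by 0.30, and by 0.91 after length correction, the largest value of the 46 on that scale. Cenpf was under the filter, with 0.710 to 0.820 FPKM in Gsdmd-/- samples inside the WT range of 0.570 to 0.890 FPKM.

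Of genes that end mitosis or hold it at the checkpoint, Ube2c and Cdc20 rose and Bub1 and Bub1b did not pass. Ube2c, the enzyme that hands ubiquitin to the anaphase-promoting complex (APC/C), had 81.4, 81.3 and 74.6 FPKM in Gsdmd-/- samples, against 46.1, 50.6 and 46.1 FPKM in WT samples (log2 change 0.72, adjusted p = 4.93e-08). Cdc20, the APC/C activator, rose by 0.58, with 6.96 to 7.95 FPKM in Gsdmd-/- samples and 4.56 to 4.74 FPKM in WT samples. After length correction, Ube2c rose by 0.29 and Cdc20 by 0.23. Bub1, a checkpoint kinase, had 3.35, 3.40 and 3.33 FPKM in Gsdmd-/- samples, inside the WT values of 3.20, 3.06 and 3.53 FPKM (log2 change 0.03, adjusted p = 0.651). Bub1b, the checkpoint protein BubR1, had 3.99, 3.91 and 4.77 FPKM in Gsdmd-/- samples and 3.92, 3.47 and 3.51 FPKM in WT samples, with Gsdmd-/- replicate 3 apart from the rest (log2 change 0.17, adjusted p = 0.0601). Both passed after length correction (0.36 and 0.27). Mad2l1, a core checkpoint gene outside the 50 and named after its value was seen, rose, with 12.3 to 12.8 FPKM in Gsdmd-/- samples and 10.2 to 11.3 FPKM in WT samples (log2 change 0.22, adjusted p = 0.00185). Its log2 change was 0.90 after length correction, with its transcript taken as 7557 bases. Bub1b also passed without Gsdmd-/- replicate 2 (0.0405) or WT replicate 1 (0.0387).

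The motor proteins and Plk1 were mixed. Plk1, a kinase of mitotic entry, had 15.4, 15 and 15.1 FPKM in Gsdmd-/- samples, against 12.3, 11.7 and 12.5 FPKM in WT samples (log2 change 0.30, adjusted p = 8.42e-05), and had a log2 change of 0.02 after length correction (adjusted p = 0.656). Kif20a and Kif23, motors of the central spindle and cytokinesis, rose by 0.57 and 0.14, and by 0.73 and 0.33 after length correction. Kif23 passed narrowly (adjusted p = 0.0446) and lost its call without any 1 of 5 libraries, each of them but WT replicate 1 (adjusted p = 0.0651 to 0.126). Kif11, the motor that pushes spindle poles apart, had 5.83, 5.41 and 6.07 FPKM in Gsdmd-/- samples and 6.86, 6.08 and 5.73 FPKM in WT samples. Its sign depended on the scale: the log2 change was -0.09 as deposited (adjusted p = 0.247), -0.30 in TPM (adjusted p = 0.00290) and 0.36 after length correction (adjusted p = 0.000524). Nusap1, a spindle microtubule protein, rose by 0.39 and Stmn1, a microtubule destabiliser, by 0.65, and after length correction by 0.59 and 0.25.

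**Figure D3:**
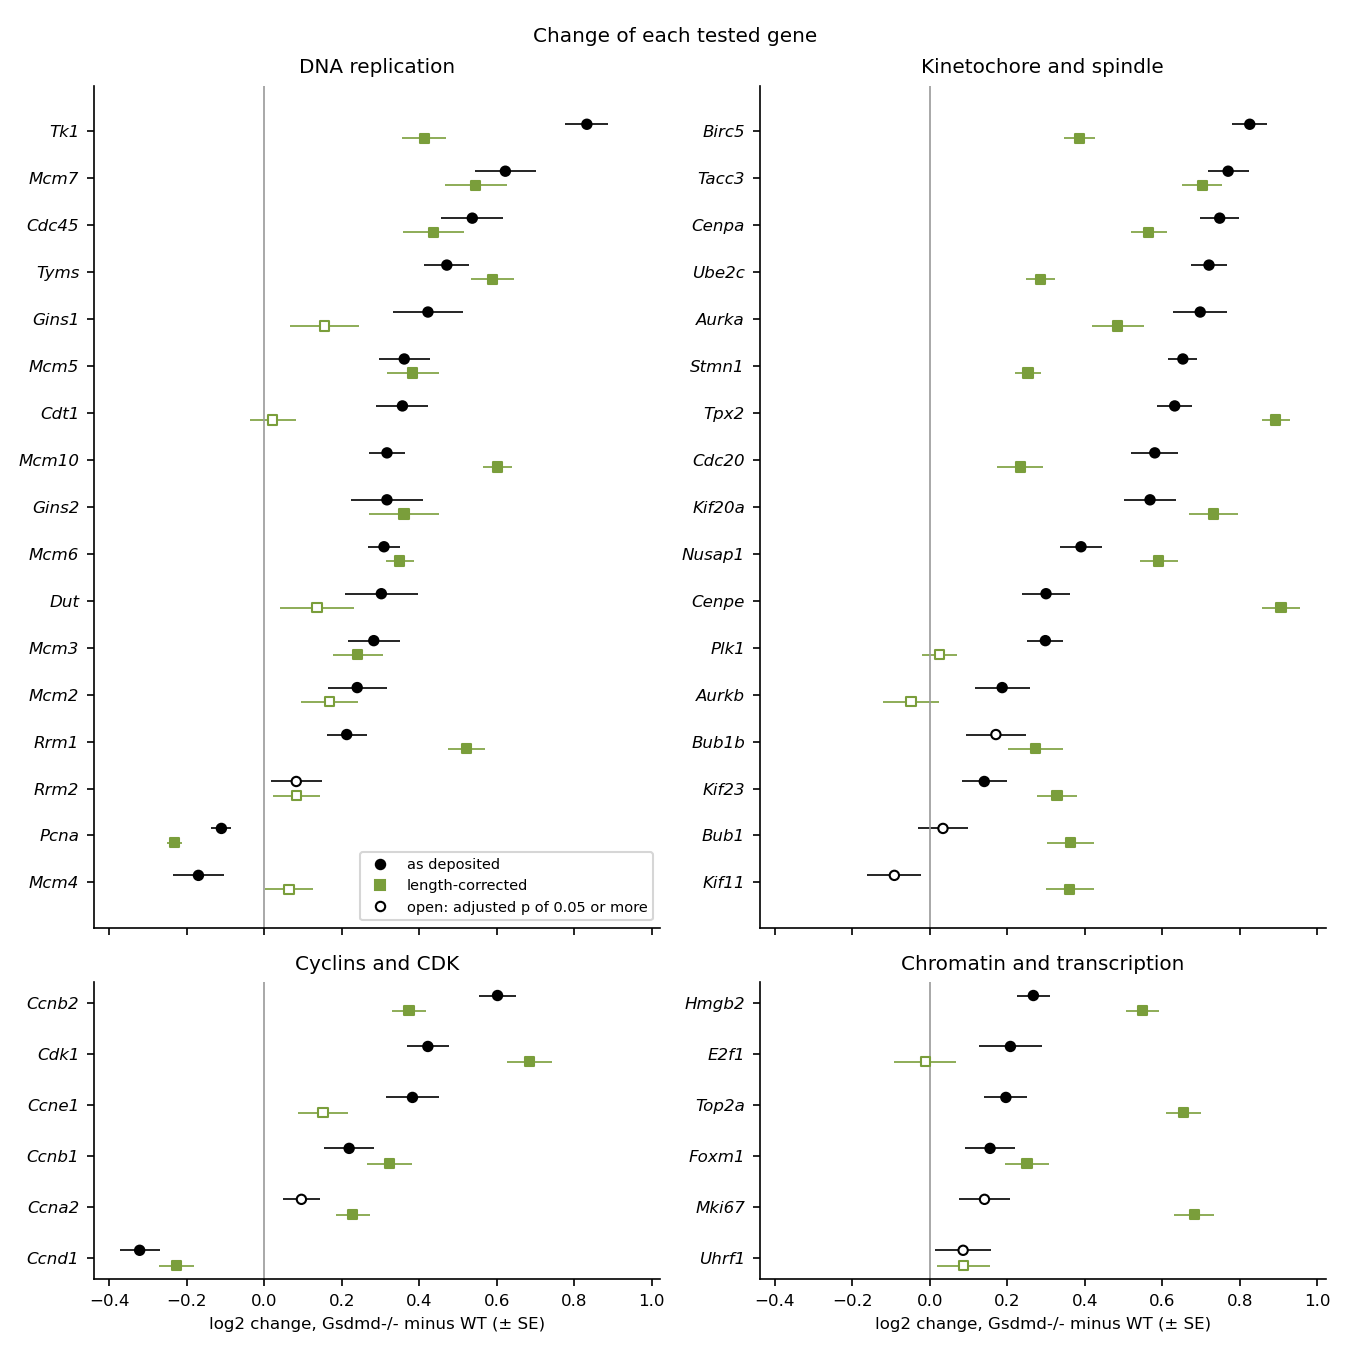
Log2 change (Gsdmd-/- minus WT, ± SE) of the 46 tested genes, as deposited (circles) and after length correction (squares), with open symbols where the adjusted p was 0.05 or more. Pcna and Ccnd1 lie below 0 on both, while Mcm4, Kif11, Aurkb and E2f1 lie on opposite sides of 0.

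Among cyclins and Cdk1, 4 of 6 tested genes rose (66.7%, against 40.6% of all tested genes) and 1 fell (16.7%, against 36.9%). The median log2 change was 0.30 as deposited, 0.28 after length correction and 0.12 in TPM. The group held 0.0168% of all FPKM in Gsdmd-/- samples and 0.0182% in WT samples, with Ccnd1, which fell, as its most abundant gene. Ccnb2, a mitotic cyclin, had 20.1, 20.4 and 20.9 FPKM in Gsdmd-/- samples, against 12.9, 13.9 and 12.7 FPKM in WT samples (log2 change 0.60, SE 0.0475, adjusted p = 2.53e-07). Cdk1, the kinase that mitotic cyclins activate, had 14.1, 15.4 and 13.6 FPKM in Gsdmd-/- samples, against 10.3, 10.7 and 10.4 FPKM in WT samples (log2 change 0.42, adjusted p = 1.58e-05). Neither gene's groups overlapped, and after length correction they rose by 0.37 and 0.68. Ccnb1, the partner cyclin whose loss lets cells leave mitosis, had 10.8, 9.80 and 11.5 FPKM in Gsdmd-/- samples and 9.53, 8.48 and 9.16 FPKM in WT samples (log2 change 0.22, adjusted p = 0.00815). It rose by 0.32 after length correction. Ccna2, the cyclin of S phase and G2, had 16, 14.7 and 15.2 FPKM in Gsdmd-/- samples, just above 14.0, 14.2 and 14.5 FPKM in WT samples. It did not pass as deposited (log2 change 0.10, adjusted p = 0.0824) and passed after length correction (0.23, adjusted p = 0.00104) and without Gsdmd-/- replicate 2 (0.0476).

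The G1 cyclins did not move together. Ccne1, which starts S phase, had 3.43, 3.03 and 2.94 FPKM in Gsdmd-/- samples, against 2.13, 2.23 and 2.14 FPKM in WT samples (log2 change 0.38, adjusted p = 0.000297), and did not pass after length correction (0.15, adjusted p = 0.0656). Ccne2, of the same role, was under the filter at 0.50, 0.390 and 0.390 FPKM in Gsdmd-/- samples, below 0.810, 0.950 and 0.710 FPKM in WT samples, and with no filter it fell by 0.35 (adjusted p = 0.00325). Ccnd1, which couples growth factor signals to the cycle, had 29.3, 27.6 and 32.4 FPKM in Gsdmd-/- samples, against 37.7, 37.1 and 37.2 FPKM in WT samples. The groups did not overlap (log2 change -0.32, SE 0.0516, adjusted p = 0.000114), and it fell by 0.23 after length correction and by 0.55 in TPM.

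In the group of chromatin and transcription genes, 4 of 6 tested rose (66.7%, against 40.6% of all tested genes) and 0 fell (against 36.9%), with a median log2 change of 0.18. The median was 0.40 after length correction, where 4 rose (66.7%, against 30.0%). It was -0.03 in TPM, where 0 rose (against 25.0%) and 0 fell (against 51.0%). Mki67, the Ki-67 marker of cycling cells, had 9.75, 8.83 and 10.3 FPKM in Gsdmd-/- samples and 9.27, 8.14 and 8.53 FPKM in WT samples. The groups overlap and the gene did not pass (log2 change 0.14, SE 0.0659, adjusted p = 0.0684), but its transcript of 10061 bases is the longest of the 46, and after length correction it rose by 0.68 (adjusted p = 1.25e-06). It also passed without Gsdmd-/- replicate 2 (0.0190) or WT replicate 1 (0.0314). Top2a, the topoisomerase that untangles sister chromatids, had 18.4, 18.4 and 20.0 FPKM in Gsdmd-/- samples, against 16.6, 15.2 and 17.4 FPKM in WT samples (log2 change 0.20, adjusted p = 0.00658), and rose by 0.65 after length correction. Hmgb2, a DNA-bending protein, had 50.2, 47.4 and 47.0 FPKM in Gsdmd-/- samples, against 40.7, 41.1 and 37.9 FPKM in WT samples (log2 change 0.27, adjusted p = 9.44e-05), and rose by 0.55 after length correction. In TPM the log2 change of Top2a was -0.01 and that of Hmgb2 0.05.

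The calls of the transcription factors of the cycle were not firm. Foxm1, the driver of mitotic genes, had 5.89, 6.17 and 6.87 FPKM in Gsdmd-/- samples, just above 5.63, 5.76 and 5.28 FPKM in WT samples (log2 change 0.16, adjusted p = 0.0463), with 0.25 after length correction and -0.04 in TPM. It lost its call without any 1 of 5 libraries, each but Gsdmd-/- replicate 1 (adjusted p = 0.0505 to 0.163). E2f1, an activator of replication genes, had 7.85, 5.92 and 7.02 FPKM in Gsdmd-/- samples, a wide range that overlaps 5.59, 5.99 and 5.92 FPKM in WT samples (log2 change 0.21, adjusted p = 0.0347). After length correction its log2 change was -0.01 (adjusted p = 0.906). Its call was lost without any 1 of 5 libraries, each but Gsdmd-/- replicate 2 (adjusted p = 0.0524 to 0.165). E2f2 was under the filter, with 0.290 to 0.430 FPKM in Gsdmd-/- samples and 0.340 to 0.420 FPKM in WT samples. Uhrf1, which carries DNA methylation through replication, had 2.23 to 2.27 FPKM in Gsdmd-/- samples and 1.84 to 2.23 FPKM in WT samples and did not pass (log2 change 0.09, adjusted p = 0.288).

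Other genes of the same processes, in 8 lists of 134 genes, were read from the same fit, and 125 were tested. Of these 66 rose (52.8%) and 27 fell (21.6%), where 40.6% of all tested genes rose and 36.9% fell. After length correction 68 rose (54.4%) and 18 fell (14.4%), where 30.0% and 30.3% of all genes so corrected did. Genes of DNA polymerases and the fork rose in 18 of 25 cases (72%) and fell in 0 (median log2 change 0.27, 0.23 after length correction and 0.07 in TPM). Chaf1b, of the complex that places histones behind the fork, had 5.51, 4.97 and 6.12 FPKM in Gsdmd-/- samples and 3.21, 2.50 and 2.16 FPKM in WT samples (log2 change 0.86). Rnaseh2a, which removes RNA from DNA, and Lig1, which seals new DNA strands, rose by 0.78 and 0.64. Further kinetochore and spindle genes rose in 19 of 27 cases (70.4%) and fell in 1 (median 0.33, 0.31 after length correction and 0.13 in TPM), with Cenpm, Kif22 and Spc24 higher by 1.02, 0.94 and 0.69. Ect2, the activator of the cleavage furrow, was the gene that fell, by 0.62, and it was named after its value was seen.

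Licensing and chromosome structure genes moved less uniformly, and their counts stand beside 40.6% of all tested genes that rose and 36.9% that fell. Of 12 origin genes 2 rose and 2 fell (16.7% each, median 0.0018, 0.06 after length correction and -0.18 in TPM): Gins4 and geminin (Gmnn), the inhibitor of Cdt1, rose by 0.67 and 0.36, and Orc4, of the origin recognition complex, fell by 0.46. After length correction Gmnn and Orc4 did not pass (adjusted p = 0.812 and 0.331). Of 13 condensin and cohesin genes 4 rose (30.8%) and 5 fell (38.5%). After length correction 8 rose (61.5%, against 30.0% of all genes so corrected) and 3 fell (23.1%, against 30.3%). The sign of the median turned with the scale, at -0.05 as deposited, -0.23 in TPM and 0.35 after length correction. Stag2 and Rad21, of cohesin, fell by 0.92 and 0.65 and Ncapg2, of condensin, by 0.77, and all 3 fell after length correction. The risers were named after their values were seen. Smc1a, of cohesin, rose by 0.48 and Ncaph2, Ncapd2 and Ncaph, of condensin, by 0.48, 0.46 and 0.30, and all of them rose after length correction.

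Pocket protein, E2F and partner genes had the lowest median as deposited of the 8 lists. Of 14 tested, 10 fell (71.4%, against 36.9% of all tested genes) and 3 rose (21.4%, against 40.6%). The median log2 change was -0.40, -0.19 after length correction and -0.63 in TPM. Rbl1, the pocket protein p107, had 13.8, 14.9 and 15.4 FPKM in Gsdmd-/- samples, against 33.2, 31.0 and 32.2 FPKM in WT samples (log2 change -1.08, adjusted p = 3.67e-09). Rb1, the retinoblastoma protein, had 2.91, 2.90 and 3.36 FPKM in Gsdmd-/- samples, against 6.04, 5.64 and 5.89 FPKM in WT samples (log2 change -0.76, adjusted p = 6.34e-07). E2f3, an activating E2F, fell by 0.64. After length correction these fell by 0.62, 0.30 and 0.39. The 3 risers were named after their values were seen. Mybl2, the gene of B-MYB, had 1.09, 1.69 and 1.46 FPKM in Gsdmd-/- samples, against 0.51, 0.70 and 0.87 FPKM in WT samples (log2 change 0.51, adjusted p = 0.000914). It rose by 0.45 after length correction, the 1 gene of the list to do so, and by 0.53 in TPM. Lin37 and E2f4 rose by 0.61 and 0.32 and did not pass after length correction.

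Among CDK inhibitors 2 of 6 tested genes rose and 2 fell (33.3% each), shares close to the 40.6% and 36.9% of all tested genes. Cdkn1a, the p53 target p21, was far above any of the 50 genes, at 825, 832 and 812 FPKM in Gsdmd-/- samples, against 860, 890 and 871 FPKM in WT samples (log2 change -0.09, adjusted p = 0.00542). It fell by 0.35 after length correction. Cdkn1b, p27, had 3.5, 3.31 and 3.81 FPKM in Gsdmd-/- samples, against 5.86, 4.86 and 5.01 FPKM in WT samples (log2 change -0.46), and did not pass after length correction (-0.06, adjusted p = 0.485). Cdkn2d, p19, rose by 0.58 and Cdkn3, a phosphatase that acts on CDKs, by 0.82, and both rose after length correction. Cdkn2c and Cdkn1c had log2 changes of -0.08 and 0.02 and did not pass, and fell by 0.34 and 0.38 after length correction.

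Of 13 further cyclins, CDKs and their regulators 7 rose (53.8%, against 40.6% of all tested genes) and 5 fell (38.5%, against 36.9%). Their median was 0.21 (0.18 after length correction and 0.12 in TPM). Pkmyt1, a kinase that holds Cdk1 inactive, and Cks1b, a CDK-binding subunit, rose by 0.88 and 0.68. Ccnd2, the sister gene of Ccnd1, had 26.0, 25.2 and 26.2 FPKM in Gsdmd-/- samples, against 46.0, 44.0 and 46.0 FPKM in WT samples (log2 change -0.79, adjusted p = 5.10e-09), and fell by 0.35 after length correction. Ccnd3, of the same cyclin family and named after its value was seen, went the other way. It had 28.9 to 30.9 FPKM in Gsdmd-/- samples and 19.5 to 21.2 FPKM in WT samples (log2 change 0.52, adjusted p = 5.31e-07). Ccnd3 also rose after length correction (0.18) and in TPM (0.31). Of 15 APC/C genes 11 rose (73.3%) and 2 fell (13.3%), the median being 0.29 (0.24 after length correction and 0.08 in TPM), with the small subunits Anapc11, Anapc15 and Anapc13 higher by 0.81, 0.74 and 0.73. Anapc13 did not pass after length correction (adjusted p = 0.0699).

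**Figure D4:**
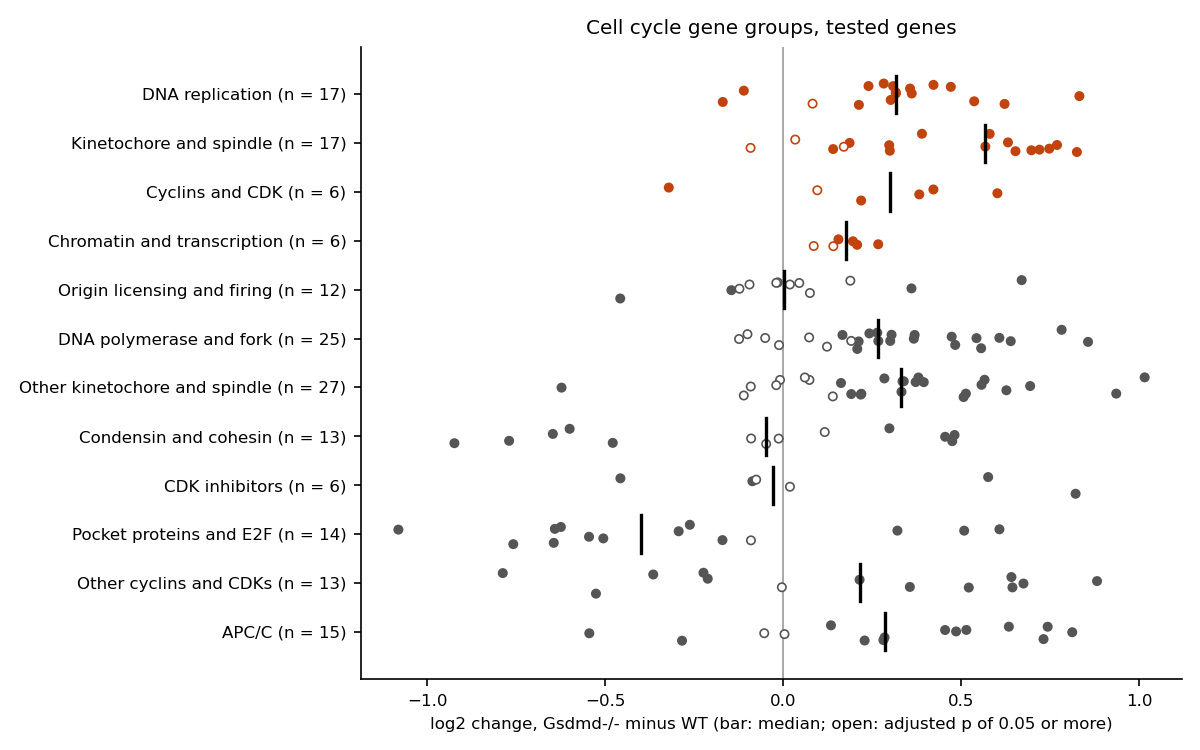
Log2 change (Gsdmd-/- minus WT) of each tested gene in the 4 groups of the 50 genes (upper, coloured) and in the 8 further lists (lower, grey), with a bar at each median and open points where the adjusted p was 0.05 or more. The bar of pocket proteins and E2F lies at -0.40 and that of kinetochore and spindle genes at 0.57.

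Markers of other cell types moved between the genotypes beside these results. Of 12 fibroblast genes, which encode matrix proteins and their partners, 9 were tested and 9 rose (100%, against 40.6% of all tested genes). The summed level of the 12 was 101 to 102 FPKM in Gsdmd-/- samples and 38.1 to 40.3 FPKM in WT samples. The 8 dendritic cell genes summed to 11.3 to 12.2 FPKM in Gsdmd-/- samples and 8.66 to 9.66 FPKM in WT samples, most of it Ccr7 (means 7.32 and 5.16 FPKM). Of 3 tested, 2 rose (66.7%, against 40.6% of all tested genes), Ccr7 and Cd209a, and Xcr1 did not pass. After length correction Cd209a did not pass (adjusted p = 0.0896). Under the filter, Clec9a was lower in every Gsdmd-/- sample than in any WT sample (means 0.55 and 0.79 FPKM) and Dpp4 higher (0.663 and 0.45 FPKM). The 8 neutrophil genes listed summed to 38 to 41.0 FPKM in Gsdmd-/- samples and 29.2 to 32.9 FPKM in WT samples, nearly all of it Csf3r. Ly6g and Retnlg were at 0 in every Gsdmd-/- sample and at most at 0.06 and 0.09 FPKM in WT samples. S100a8, S100a9 and Camp had higher means in Gsdmd-/- samples (1.19, 0.60 and 0.347 FPKM) than in WT samples (0.417, 0.37 and 0.117 FPKM), with overlap. Mpo was at 0.02 FPKM in every Gsdmd-/- sample and 0 in WT samples, and Ltf had means of 0.02 and 0.027 FPKM. The part of these cells in the rises was not tested.

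Other marker lists had lower summed levels in Gsdmd-/- samples or were near 0. Their counts, of few tested genes each, stand beside 40.6% of all tested genes that rose and 36.9% that fell. The 10 T and NK cell genes listed summed to 34.6 to 35.8 FPKM in Gsdmd-/- samples and 49.8 to 52.9 FPKM in WT samples, most of it Il7r, with 2 of 3 tested genes higher and 1 lower, and Cd3d and Cd3e stayed at or under 0.11 FPKM. Endothelial genes summed to 34.9 to 39.9 FPKM in Gsdmd-/- samples and 62.9 to 67.1 FPKM in WT samples, most of it Kdr, which fell, while the other 2 tested genes, Cdh5 and Vwf, did not pass. Of endothelial genes under the filter, Pecam1, Egfl7 and Emcn were higher in every Gsdmd-/- sample than in any WT sample, with ratios of 2.37, 3.02 and 3.57 at levels of at most 1.19 FPKM. Epithelial genes summed to 1.86 to 2.18 FPKM in Gsdmd-/- samples and 3.01 to 3.55 FPKM in WT samples, nearly all of it Cdh1, the 1 gene tested, which fell. Krt8 was at 0 in every Gsdmd-/- sample and at most at 0.03 FPKM in WT samples. Mast cell and eosinophil genes summed to 3.88 to 4.13 FPKM in Gsdmd-/- samples and 6.22 to 6.42 FPKM in WT samples, and both tested genes fell. B cell genes summed to at most 0.80 FPKM and erythroid genes to at most 1.15 FPKM in any sample, with none tested.

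Some of these genes share exon bases with a neighbour, and whether counting used the strand is not given in the sources used here, so reads in the shared part cannot be told apart and these values are uncertain. In GENCODE M21, 13 of the 50 genes overlap a protein-coding gene. As a share of exon bases the largest overlaps are those of Gins2 with Gse1 (2758 of 4097 exon bases), Kif20a with Cdc23 (1271 of 4338), Ccnd1 with LTO1 (1100 of 4709) and Ube2c with Tnnc2 (592 of 2600). Of these partners, Gse1 had a log2 change of -0.40, Cdc23 one of 0.0037 and LTO1 one of 0.54, and Tnnc2 was not tested. Ccne2 shares 609 of 3495 exon bases with Ints8, which fell by 0.59.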

How the data were processed

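Macrophage RNA was measured in 3 Gsdmd-/- and 3 WT samples, grouped and numbered by the sample labels, sequenced on a BGISEQ-500 per the labels' protocols. The submitters' processing notes list Bowtie2 version 2.2.5 and the build GRCm38.p6. Which program made the gene values, with which annotation, is not given in the sources used here. Each of the deposited tables holds 1 value for each of 17067 genes, all typed as mRNA. No column states a unit, and the deposited values were read as FPKM since the sums of samples differ and low values are multiples of a step set by transcript length.

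The steps, in genes with 1 annotated transcript, gave the depth. Genes with at least 1 FPKM in at least 3 samples were tested on log2(FPKM + 1) in R version 4.3.3 by limma (version 3.58.1; trend and robust settings), over 10005 genes together, and p-values were adjusted by Benjamini-Hochberg. A gene with an adjusted p under 0.05 is said to have risen or fallen, and log2 changes subtract WT from Gsdmd-/- on that scale and understate changes of low genes. Unless a sentence says otherwise, they are on the values as deposited. With 3 samples a group, the smallest two-sided p of an exact permutation test is 0.1. The estimated fragments behind a tested member in its lowest sample ran from 55 (Dut) to 4717 (Pcna).

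Length correction used a smooth curve on transcript length and GC, fitted to each sample's deviation from the gene means with mgcv version 1.9.3 and subtracted, with length and GC of the longest principal protein-coding transcript in GENCODE M21, found for 98.5% of tested genes and all tested members. Coordinates and promoters are from RefSeq on GRCm38.p6.

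The members and lists were chosen with earlier results of these data known. Per-sample values are given for up to 5 risers and 4 fallers with the largest change in each group, for Mki67, Pcna, Top2a and Cdk1, and for genes whose call changes after length correction. By rule, up to 3 genes are named of each further list, and all tested CDK inhibitors. Genes of these lists beyond that rule are marked as named after their values were seen. Stmn1, Tpx2 and others are given by their range. The methods were tested on simulated data. Symbols in the marker lists that are not in the tables were not analysed here.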

Additional observations from a re-analysis of the deposited data

How the results depend on the processing

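Of 17 alternatives, the count of the 46 tested genes that rose stayed within 1.5 times of 36 in all but TPM (19), and that of genes that fell did so in all. Leaving out 1 library gave 31 to 37 genes that rose and 2 to 3 that fell. Among replication genes, 6 rose in TPM, and 1 in place of 2 fell with no filter, with a mean of at least 5 FPKM, with quantile normalization and after length correction, with and without a replicate block. Leaving out 1 library gave 1 to 2, and Mcm4 was the gene lost, without Gsdmd-/- replicate 2 or 3 or WT replicate 1 or 3. Of kinetochore and spindle genes, 1 fell in TPM, Kif11. Of cyclins, 2 fell with no filter, where Ccne2 entered. Of chromatin and transcription genes, 2 rose with no filter and with median ratio scaling and 0 in TPM, and 2 to 4 rose when 1 library was left out, with 2 without Gsdmd-/- replicate 3, WT replicate 2 or WT replicate 3. In TPM their median log2 change was -0.0262.

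E2f1 did not pass in limma without its trend and robust settings (adjusted p = 0.0545). Single genes changed sign as follows. In TPM the log2 changes were -0.0101 for Aurkb, -0.052 for Kif23, -0.0148 for Top2a and -0.0377 for Foxm1. After length correction they were 0.0637 for Mcm4, -0.049 for Aurkb, 0.361 for Kif11 and -0.0121 for E2f1, and these were the same with the replicate block. The cause was not tested.

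Same-numbered samples did not deviate together (correlations across genes of -0.0818, 0.132 and 0.0143 for numbers 1, 2 and 3), and 3 of 6 samples correlated best with their own number, so the numbers were not taken as pairs. With the replicate number as a block 35 of the genes rose and 3 fell, with Mki67 gained and Kif23 and Foxm1 lost. Depth limits Cdc6, Ccne2 and E2f2, which had an estimated 11, 24 and 28 fragments in their lowest sample, while Cenpf had 131 and was left out by the filter on FPKM.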
